A study of Mus musculus with 12 samples.

Results

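*Tmem252* and *Slc10a6* were examined in RNA-Seq of whole mouse kidney, as 2 of the 55401 gene identifiers in the deposited tables. Both were selected on their read counts in these same libraries, which were far higher after SK-124 than after vehicle, so their fold changes are given as a description and without a test. Male C57BL6 mice of 8 weeks received vehicle (6 mice) or SK-124 (6 mice), and each mouse gave 1 library. SK-124, an inhibitor of the salt-inducible kinases SIK2 and SIK3, was given as an intraperitoneal injection of 40 mg/kg, and the vehicle was 15% 2-hydroxypropyl-beta-cyclodextrin. In the same experiment RT-qPCR was done at 2.5 hours and serum was taken at 3 hours, and no separate time is stated for the RNA-Seq.

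Salt-inducible kinases phosphorylate the CRTC coactivators and so hold them in the cytoplasm. When the kinases are inhibited, or when cAMP signalling restrains them, CRTC proteins enter the nucleus and act with the transcription factor CREB. *Slc10a6* encodes SOAT, a sodium-dependent carrier that takes sulphated steroid hormones into cells, and belongs to the same family as the bile acid carriers NTCP (*Slc10a1*) and ASBT (*Slc10a2*). In mouse liver *Slc10a6* is known as a gene that rises in the acute-phase response. *Tmem252* encodes a small predicted membrane protein about which little is known.

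*Tmem252* (ENSMUSG00000048572.5) lies on the plus strand of chromosome 19 from 24674008 to 24682233 in GRCm38 (GENCODE M21), and *Slc10a6* (ENSMUSG00000029321.1) on the minus strand of chromosome 5 from 103605711 to 103629403. Each has 1 annotated transcript, so no isoform could be told from another. The *Tmem252* transcript has 2 exons and 5034 bases, of which 552 are coding and 4421, or 87.8%, are 3′ untranslated. Of 12638 tested protein-coding genes with an annotated transcript, 129 had a larger untranslated share at that end. *Slc10a6* has 6 exons and 2124 bases with 1122 coding bases, and 27.6% of these genes have a shorter transcript. The RefSeq annotation ends the *Tmem252* gene 2572 bases earlier than GENCODE does, which leaves 2462 spliced bases. RSEM's posterior SD of the count was listed at 0 for both genes in all 12 mice, so no read of either was shared out among several genes.

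The 250 bases before each annotated start are shown so that the upstream sequences of the 2 genes can be compared. They are RefSeq windows of GRCm38.p6, at chr19:24673758-24674007 on the plus strand for *Tmem252* and at chr5:103629404-103629653 on the minus strand for *Slc10a6*, written 5′ to 3′ in the direction of the gene. Capitals mark the only matches to 4 motifs searched on both strands.
Tmem252: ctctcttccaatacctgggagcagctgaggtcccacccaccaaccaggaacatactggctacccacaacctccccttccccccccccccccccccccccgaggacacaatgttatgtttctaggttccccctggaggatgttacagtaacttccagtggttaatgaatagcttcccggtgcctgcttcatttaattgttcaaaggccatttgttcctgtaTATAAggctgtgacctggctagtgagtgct
Slc10a6: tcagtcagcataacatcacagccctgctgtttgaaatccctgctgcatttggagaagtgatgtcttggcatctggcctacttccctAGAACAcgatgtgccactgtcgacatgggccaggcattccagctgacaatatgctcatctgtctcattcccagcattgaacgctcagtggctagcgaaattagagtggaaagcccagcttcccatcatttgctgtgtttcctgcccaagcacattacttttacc
The motifs were the full cAMP response element TGACGTCA, its short form TGACG, the short glucocorticoid receptor site TGTTCT and the TATA core TATAA. The short form TGACG lies within TGACGTCA, so these searches overlap. Neither window held TGACG, which 17.8% of all 32851 windows held, or TGACGTCA, which 1.55% held. The *Tmem252* window held TATAA from 30 to 26 bases before the start, a core that 22.8% of windows held on either strand and 16.0% on the gene's strand. The *Slc10a6* window held AGAACA, the reverse complement of TGTTCT, from 164 to 159 bases before the start, and 16.1% of windows held that motif on either strand. The windows thus shared no motif of the 4. GC content was 53.2% and 49.2%, against a median of 52.4% over all windows, and the *Tmem252* window held a run of 22 C. A match is a string of letters and does not show that a factor binds there. Bases farther from the start were not searched, so a missing match speaks only for these 250 bases.

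Expected counts summed to between 19244227 and 19771802 per library, and no library of a group repeated another. Markers of proximal tubule, thick ascending limb, distal tubule, collecting duct, podocytes and endothelium were all detected. Of 9 adrenal markers 1 passed the expression filter, with summed TPM of 0.13 to 0.62 in vehicle-treated and 0.26 to 0.43 in SK-124-treated mice, and 3 testis markers had 0 counts. The 10 genes with the most counts took 39.9% to 43.2% of counts in vehicle-treated mice, 44.4% to 46.8% in SK-124-treated mice 1 to 3 and 38.6% to 40.2% in SK-124-treated mice 4 to 6. Of 14159 genes put through the quasi-likelihood test of edgeR, 10.8% were called higher and 13.5% lower with SK-124 at a Benjamini-Hochberg adjusted p (FDR) under 0.05, and in 6.32% all SK-124-treated mice lay above all vehicle-treated mice. Scaled to library totals instead of TMM-normalized counts, the higher calls fell from 44.5% to 20.3% of all calls, with the median gene at a log2 fold change of -0.12.

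*Tmem252* was already a well-expressed kidney gene in vehicle-treated mice. Its expected counts there were 1620 at the lowest, 1785.5 at the median and 2381 at the highest, and in SK-124-treated mice 14111, 18860 and 22974. On the TMM-normalized scale of CPM (counts scaled to library size) this was 80.3, 89.1 and 112.8 in vehicle-treated and 817.2, 1043.7 and 1164.2 in SK-124-treated mice. The groups did not overlap, and the lowest SK-124-treated mouse (mouse 1) lay 7.24-fold above the highest vehicle-treated mouse (mouse 6). Mean CPM was 92.0 ± 11.0 with vehicle and 1013.3 ± 140.6 with SK-124 (SD, n = 6 each), an 11.0-fold difference. The fitted log2 fold change was 3.46 with a standard error of 0.10. Against the vehicle mean, each SK-124-treated mouse was between 8.88-fold and 12.6-fold higher.

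*Slc10a6* was close to the limit of detection in vehicle-treated kidneys. The 6 vehicle-treated mice had 4, 3, 4, 3, 5 and 2 counts, and the 6 SK-124-treated mice 44, 48, 54, 97, 46 and 60. Every treated mouse was thus above every control, and the lowest treated mouse (mouse 5) lay 9.72-fold above the highest control (mouse 5) in CPM. Mean CPM was 0.172 ± 0.0508 with vehicle and 3.09 ± 0.886 with SK-124 (SD, n = 6 each). The 349 counts of the SK-124 group were 18.1 times the 21 counts of the vehicle group, with an exact 95% interval of 11.6 to 29.6 that covers counting error only. The fitted log2 fold change was 4.12 with a standard error of 0.26. The vehicle counts are so few that the gene passed the expression filter only through the SK-124 group, and its value moves with the scale, being 1.10 for log2(TPM + 1) and 2.94 for log2(TPM + 0.1).

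**Figure D1:**
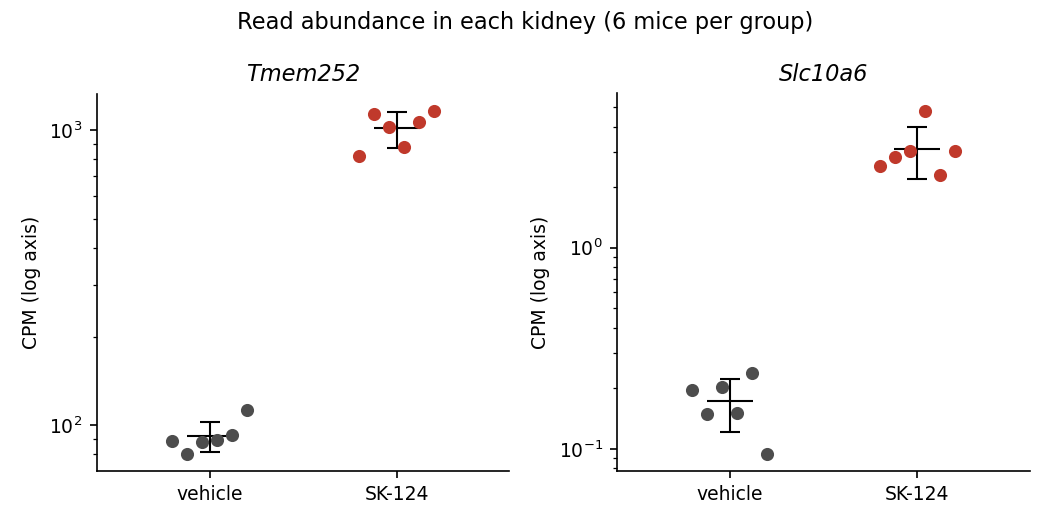
TMM-normalized CPM of *Tmem252* and *Slc10a6* in each mouse, on log axes that differ between the panels. Points are mice 1 to 6 from left to right, and bars are the mean ± SD of 6 mice; for both genes the groups do not overlap, and SK-124-treated mouse 4 has the highest *Slc10a6* value, 4.8 CPM.

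In absolute terms the genes stood far apart. TPM values (transcripts scaled to gene length and to a fixed total) averaged 17.6 ± 3.03 for *Tmem252* with vehicle and 174.9 ± 33.5 with SK-124. For *Slc10a6* they averaged 0.0833 ± 0.025 and 1.35 ± 0.456 (SD, n = 6 each). Mean *Tmem252* TPM was therefore 211.8 times that of *Slc10a6* with vehicle and 129.7 times with SK-124. If every *Tmem252* read were assigned to the shorter RefSeq transcript, its TPM would be 37.7 ± 6.45 and 374.3 ± 71.8, and the ratios to *Slc10a6* 452.8 and 277.6. The files do not show how many reads fall in the 2572 bases that RefSeq leaves out.

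Ranked by mean TPM among all 55401 genes, *Tmem252* moved from 2955 with vehicle to 311 with SK-124. In single mice its rank ran from 2448 to 3343 in the vehicle group and from 251 to 371 in the SK-124 group. With all reads on the RefSeq length the ranks of the means would be 1471 and 123. The rank of *Slc10a6* moved from 17205 to 10846, with single mice between 16375 and 17895 and then between 9765 and 11469. Even in treated kidneys 80.42% of gene identifiers, many of them at 0, lay below *Slc10a6*, whereas 99.44% lay below *Tmem252*. The gain in mean TPM was 157.3 for *Tmem252*, in place 17 of all genes and in place 8 of the 1536 genes called higher. The gain of *Slc10a6* was 1.27 TPM, in place 866 of all genes and 660 of those called higher.

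**Figure D2:**
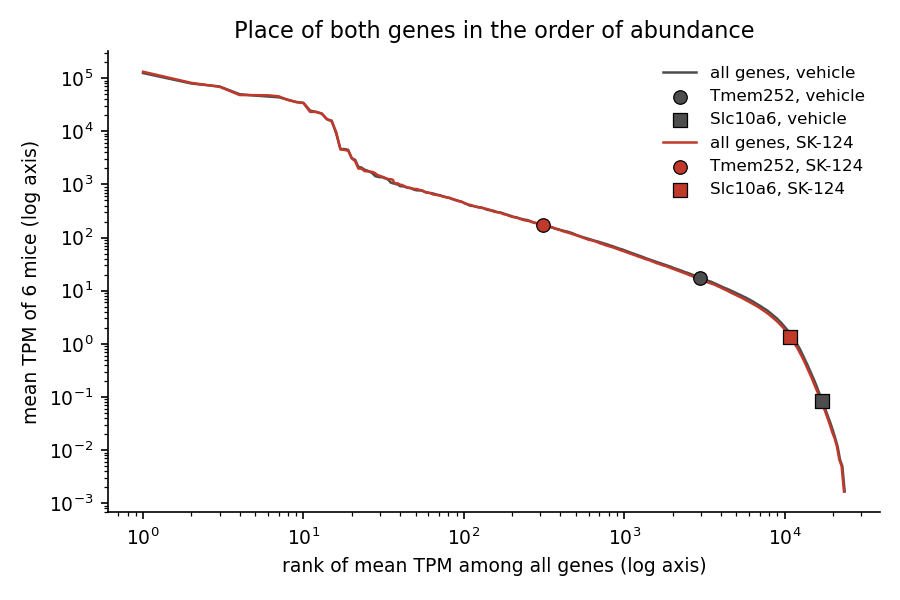
Mean TPM of all genes against their rank in each group, with log axes and the 2 genes marked. *Tmem252* (circles) moves from rank 2955 to rank 311 and *Slc10a6* (squares) from 17205 to 10846, while the curves of all genes in both groups nearly coincide.

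By size of fitted fold change *Slc10a6* was 7th and *Tmem252* 15th of the 14159 tested genes. None of the 14 genes with a larger fold change than *Tmem252* had a higher mean CPM, which can be seen in the plot of fold change against abundance. For *Slc10a6* 4 genes had both a larger fold change and a higher mean, and 14.2% of tested genes had a lower mean CPM. Among called genes averaging 1 CPM or more, the neighbours of *Slc10a6* in the order were *Zbtb16* (5.09), a glucocorticoid-responsive zinc finger factor, and *Ddit4* (4.15), an inhibitor of mTORC1 signalling, above it. *Atf3* (4.09), a stress-induced bZIP factor, and *Eif4ebp3* (4.03), a repressor of cap-dependent translation, came next below. Around *Tmem252* stood *Cebpd* (3.76), a C/EBP factor of the acute-phase response, and the nuclear receptor gene *Nr4a2* (3.60) above. The cell cycle inhibitor gene *Cdkn1a* (3.43) and the heme oxygenase gene *Hmox1* (3.39) stood below, all values being log2 fold changes. Standard errors were 0.10 for *Tmem252*, 0.44 for *Nr4a2*, 0.12 for *Cdkn1a* and 0.30 for *Hmox1*. The place of *Tmem252* in this order is therefore not resolved from *Nr4a2*, *Cdkn1a* or *Hmox1*. *Slc10a6*, at 0.26, is not resolved from *Ddit4*, *Atf3* or *Eif4ebp3*. *Zbtb16*, with a standard error of 0.18, lies higher than *Slc10a6* by more than both standard errors together. *Cebpd*, also at 0.18, lies higher than *Tmem252* by slightly more than both of theirs.

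**Figure D3:**
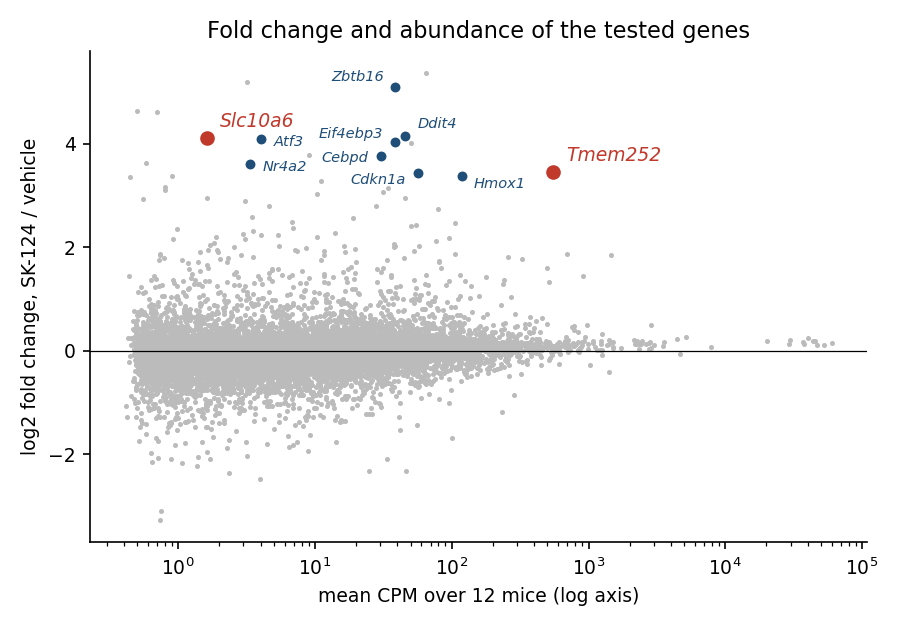
Log2 fold change with SK-124 against mean CPM (log axis) for the tested genes, 1 point per gene. *Tmem252* (red, 3.46) lies to the right of all genes with a larger fold change, *Slc10a6* (red, 4.12) lies near the low end of abundance, and the 8 genes next to them in the order of fold change are in blue.

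The spread between mice was set against that of counting alone. For *Tmem252* counts the coefficient of variation was 14.4% with vehicle and 16.2% with SK-124, where counting alone would give 2.31% and 0.726%. For *Slc10a6* it was 30.0% with vehicle, below the 53.5% of counting alone, and 34.2% with SK-124, above the 13.1% of counting alone. In that group mouse 4 stood highest with 97 counts, which have an exact 95% interval of 78.7 to 118.3, while the other 5 mice had at most 60 counts. Over those 5 mice the coefficient of variation was 13.0%, where counting alone would give 14.1%. With 1 of the other mice left out instead it was 34.2% to 38.5%, so the larger spread of *Slc10a6* rests on mouse 4. That mouse was left out because it stood highest, so the lower value does not show that the other mice differ by counting alone. Without mouse 4 the *Slc10a6* log2 fold change was 3.95. Among the 1536 genes called higher, 17.6% had their highest value in that mouse.

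Mice 1 to 3 of the SK-124 group, whose most abundant genes took more of the counts, averaged 992.5 ± 162.2 CPM of *Tmem252* and 2.80 ± 0.24 CPM of *Slc10a6* (SD, n = 3). Mice 4 to 6 averaged 1034.0 ± 147.8 and 3.38 ± 1.28. The values of the 2 sets overlapped for both genes. Against all vehicle-treated mice the *Slc10a6* log2 fold change was 3.97 with mice 1 to 3 and 4.26 with mice 4 to 6.

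Across the mice of one group the 2 genes did not track each other in a way these numbers resolve. On log2(CPM + 0.5), Pearson's r was -0.501 (p = 0.3) with vehicle and -0.301 (p = 0.597) with SK-124, and Spearman's rho was -0.0857 and 0.0857 (p = 0.919 each), all by two-sided exact permutation tests over 6 mice. The adjusted p was 0.919 for all 4 values. The vehicle values say nothing of the pair, since *Slc10a6* had 2 to 5 counts there and varied less than counting alone would give. Without the 2 mice farthest from the median of *Tmem252*, r became 0.566 and 0.231, so the sign rests on single mice. Over all 12 mice r was 0.973, a value that includes the difference between the groups.

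By the same measure over 12 mice, the genes most like *Tmem252* among 13007 genes were *Ddit4* (r = 0.995), the stress-responsive mTORC1 regulator *Sesn2* (0.994) and *Angptl4* (0.993), an inhibitor of lipoprotein lipase. *Cdkn1a* (0.992) and *Noct* (0.991), which encodes the circadian phosphatase nocturnin, followed. Those most like *Slc10a6* were *Socs3* (0.992), a feedback inhibitor of JAK-STAT signalling, *Nr4a3* (0.988), *Cebpd* (0.988), the orphan receptor gene *Esrrb* (0.987) and again *Ddit4* (0.986). Many genes came close to these, since 382 genes had r above 0.9 with *Tmem252* and 354 with *Slc10a6*. For deviations from the group means r ran from 0.274 (*Cdkn1a*) to 0.685 (*Noct*) with *Tmem252* and from 0.412 (*Ddit4*) to 0.746 (*Socs3*) with *Slc10a6*, and was -0.325 between the pair. Of the 5 genes chosen for their likeness to *Slc10a6* over these mice, *Socs3*, *Nr4a3* and *Esrrb* had their highest treated value in mouse 4, as *Slc10a6* had, and *Cebpd* and *Ddit4* in mouse 6. These are descriptions over 12 libraries that share the treatment, and they carry no test.

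The other SLC10 genes were not called higher with SK-124. Of the 6 besides *Slc10a6*, 5 passed the expression filter, 0 were called higher and 1 lower by the quasi-likelihood test of edgeR (Benjamini-Hochberg FDR), and their median log2 fold change was -0.10 against -0.01 for all tested genes (10.8% of all genes were higher and 13.5% lower). No family member was higher at an unadjusted p under 0.05, with DESeq2 or with limma either. *Slc10a3*, a family member of unknown substrate, fell from 9.51 ± 0.653 to 7.70 ± 0.883 CPM (log2 fold change -0.30, FDR = 0.0123). *Slc10a2*, which encodes the bile acid carrier of the proximal tubule and ileum, had 47.9 ± 7.52 and 44.7 ± 7.71 CPM (FDR = 0.569). *Slc10a5* had a log2 fold change of 0.18 (FDR = 0.274), *Slc10a7* of 0.01 (FDR = 0.979) and *Slc10a1* of -0.14 (FDR = 0.786).

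Per length, *Slc10a6* stood 6th of the 7 family members with vehicle, at 0.0833 TPM (0.05 to 0.12), beneath *Slc10a1* at 0.367 TPM (0.13 to 0.45). With SK-124 it stood 5th at 1.35 TPM (1.01 to 2.22), next to *Slc10a7* at 1.43 TPM (1.14 to 1.64). The ranges of these 2 genes overlapped, so their order is not resolved. *Slc10a2* led in both groups with 11.1 ± 1.34 and 9.39 ± 1.84 TPM, followed by *Slc10a5* and *Slc10a3*, and *Slc10a4* was at or near 0.

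**Figure D4:**
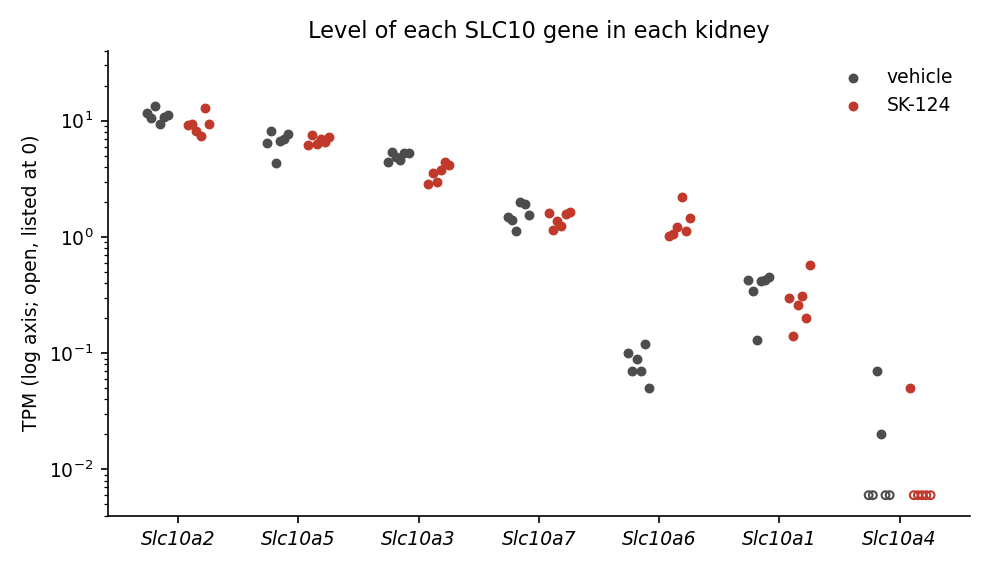
TPM of each SLC10 gene in each of 6 vehicle-treated and 6 SK-124-treated mice on a log axis, where open points are mice listed at 0 and drawn at the foot. *Slc10a6* goes from 0.05 to 0.12 TPM in the vehicle group to 1.01 to 2.22 TPM in the SK-124 group, level with *Slc10a7*, while the points of the other genes overlap between groups or, for *Slc10a3*, nearly part.

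Genes that make, cleave or carry sulphated steroids were examined because SOAT carries these compounds. They were listed with earlier results of these data known. Of 32 such genes 27 were tested, 6 were higher (22.2%, against 10.8% of all tested genes) and 3 lower (11.1%, against 13.5%), with a median log2 fold change of 0.13. The 6 higher genes became 4 with library totals and 2 with limma on log2(TPM + 1). Among the 10 tested genes of sulphation and its sulphate donor, 2 rose and 1 fell. The desulphation part held 3 genes, of which the steroid sulphatase gene *Sts* was not found in the data. The 2 tested genes of that part were *Sumf1* and *Sumf2*, of which 0 rose and 1 fell. Cleavage of sulphated steroids was thus not measured through *Sts*. The sulphotransferase genes *Sult1a1* and *Sult1d1*, which act mainly on phenols and catechols, rose from 8.85 ± 0.922 to 15.4 ± 1.35 CPM and from 218.6 ± 16.9 to 357.8 ± 27.7 CPM (log2 fold changes 0.80 and 0.71, FDR = 1.25e-06 and 3.42e-07). The steroid sulphotransferase genes *Sult2a1*, *Sult2a2* and *Sult2a8* had 0 counts in all mice, and *Sult1e1* had at most 1. *Sult2b1* of the same list was detected at 0.585 ± 0.282 TPM with vehicle and 0.77 ± 0.396 with SK-124. It was not called by edgeR (log2 fold change 0.52, FDR = 0.323).

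Among the 15 other carriers of sulphated steroids, all tested, 4 rose and 1 fell, where 10.8% of all tested genes rose and 13.5% fell. *Slco3a1*, an organic anion carrier, rose from 154.0 ± 8.94 to 191.9 ± 14.3 CPM (log2 fold change 0.32, FDR = 0.000674), and *Slco2b1*, a related carrier, fell from 15.6 ± 2.43 to 9.82 ± 1.70 CPM (-0.67, FDR = 0.000404). The basolateral anion exchanger genes *Slc22a6* and *Slc22a8*, among the most abundant of the list, had log2 fold changes of -0.02 (FDR = 0.833) and -0.09 (FDR = 0.416). In treated kidneys the 1.35 TPM of *Slc10a6* compared with 184.3 ± 20.0 TPM of *Slc22a6* and 28.3 ± 5.37 TPM of *Slco1a1*. No carrier of this list had a log2 fold change above 0.71, the value of *Slco4a1* (FDR = 0.0066).

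None of the tested genes described beside *Tmem252* or *Slc10a6* changed by nearly as much. Of these 20 genes 15 were tested, 3 were higher (20.0%, against 10.8% of all tested genes) and 1 lower (6.67%, against 13.5%), with a median log2 fold change of 0.06. *Pgm5*, a phosphoglucomutase-like gene, runs towards *Tmem252* from the other strand, and the ends of the 2 genes lie 783 bases apart. It had 3.58 ± 0.192 CPM with vehicle and 4.26 ± 1.27 with SK-124 (log2 fold change 0.25, FDR = 0.289). None of the other 7 tested genes described on either side of *Tmem252* was called.

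*Ptpn13*, a phosphatase gene that ends 7.41 kb from *Slc10a6*, had a log2 fold change of -0.09 (FDR = 0.477). On the other side, 3 of the 5 nearest genes were tested and all 3 rose, where 10.8% of all tested genes did. They were *Aff1*, of the transcription elongation machinery, 63.0 kb away (from 58.3 ± 13.1 to 100.6 ± 13.7 CPM, log2 fold change 0.79, FDR = 0.000321), *Klhl8*, a ubiquitin ligase adaptor gene (0.70, FDR = 0.000156), and *Hsd17b11*, a lipid droplet dehydrogenase gene (0.35, FDR = 0.0104). The call for *Hsd17b11* was lost with library totals (FDR = 0.0857) and with limma on log2(TPM + 1) (FDR = 0.298). *Arhgap24*, 707.8 kb away on the first side, fell (-0.38, FDR = 0.000207). The pseudogene *Gm15844* lies inside *Slc10a6* and had 0 counts.

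**Figure D5:**
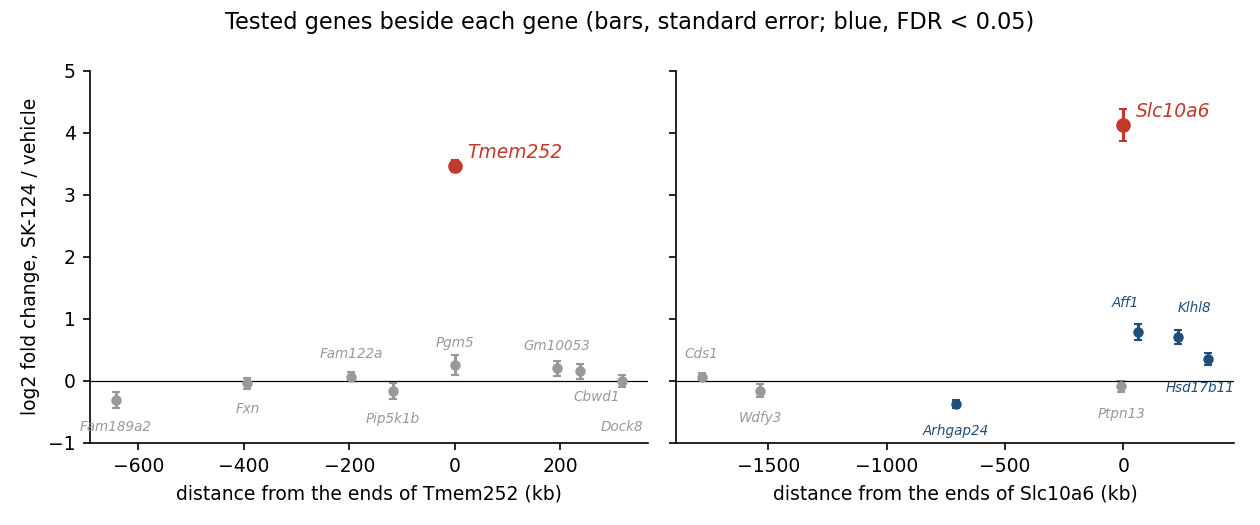
Log2 fold change with SK-124 and its standard error for the tested genes beside *Tmem252* (left) and *Slc10a6* (right), against distance in kb, negative towards lower coordinates. Grey genes were not called and blue genes have an FDR under 0.05; *Aff1*, *Klhl8* and *Hsd17b11* rise on one side of *Slc10a6* by 0.35 to 0.79, far less than its own 4.12.

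Most of the CREB and CRTC targets examined were higher in the same kidneys. The list was chosen with earlier results of these data known, so its share is a description and not independent evidence. Of 24 such genes 23 were tested, 20 were higher (87.0%, against 10.8% of all tested genes) and 0 lower (13.5% of all) in the quasi-likelihood test of edgeR at a Benjamini-Hochberg FDR under 0.05, with a median log2 fold change of 1.62. Also 0 were lower at an unadjusted p under 0.05, with DESeq2 and with limma. At the level of single genes *Noct* rose from 6.95 ± 1.22 to 61.2 ± 12.9 CPM (3.14, FDR = 1.83e-10) and *Crem*, the gene of a cAMP-responsive repressor, from 5.11 ± 0.671 to 17.1 ± 1.91 CPM (1.75, FDR = 5.5e-10). *Nr4a3* rose from 0.161 ± 0.115 to 6.25 ± 1.74 CPM (5.20, FDR = 3.26e-09), and *Cebpb*, of the C/EBP family, from 15.1 ± 2.60 to 61.5 ± 12.2 CPM (2.02, FDR = 7.31e-09). The fold change of *Tmem252* exceeded that of all tested genes of this list but *Nr4a2* and *Nr4a3*, and that of *Slc10a6* exceeded all but *Nr4a3*. Both genes were selected for their rise, so high places were fixed in advance. With a standard error of 0.44, *Nr4a2* (3.60) is not resolved from either gene. The immediate early genes *Fos* (0.13, FDR = 0.925), *Fosb* (1.48, FDR = 0.134) and *Ier2* (-0.09, FDR = 0.859) were the 3 tested genes not called. Of the 20 genes called, 10 (50.0%) had their highest treated value in SK-124-treated mouse 4, the mouse with the highest *Slc10a6*, as had 17.6% of all genes called higher. That share rests on 1 mouse, looked at because *Slc10a6* was highest there, and on genes that can vary together. It was not tested.

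Acute-phase and NF-kB genes were examined because *Slc10a6* is induced in that response in liver. This list too was chosen with earlier results of these data known, so its share is a description. Of 24 genes 19 were tested, 14 were higher (73.7%, against 10.8% of all tested genes) and 0 lower (13.5% of all), with a median log2 fold change of 1.11. Again 0 were lower at an unadjusted p under 0.05, with DESeq2 and with limma. *Socs3* rose from 2.06 ± 0.401 to 20.0 ± 4.38 CPM (3.28, FDR = 1.61e-10) and *Stat3*, the transcription factor of IL-6 signalling, from 41.8 ± 3.36 to 91.2 ± 9.75 CPM (1.12, FDR = 6.25e-09). The oncostatin M receptor gene *Osmr* rose from 4.89 ± 1.06 to 18.5 ± 3.43 CPM (1.92, FDR = 3.29e-08), and the NF-kB inhibitor gene *Nfkbia* from 16.2 ± 2.81 to 40.7 ± 6.96 CPM (1.32, FDR = 3.62e-07). The acute-phase transcripts *Saa1* and *Saa2* had 0 counts in all mice, and *Saa3* and *Orm1* had at most 2. Others of the list were called higher by edgeR. *Fga* rose from 15.4 ± 1.97 to 52.0 ± 17.4 CPM (1.76, FDR = 1.25e-06), and *Hp* (1.74, FDR = 0.00877) and *Lcn2* (0.88, FDR = 0.00207) rose too. *Fgb* (0.41, FDR = 0.437), *Fgg* (0.30, FDR = 0.128) and *Lbp* (0.25, FDR = 0.245) were not called.

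Of the 14 called genes of this list, 9 (64.3%) had their highest treated value in SK-124-treated mouse 4, against 17.6% of all genes called higher. This share too rests on 1 mouse and on genes that can vary together, and it was not tested. Among 4 leukocyte markers 1 was higher and 1 lower, where 10.8% and 13.5% of all tested genes were. Their summed TPM ran from 2.01 to 5.07 with vehicle and from 3.21 to 9.28 with SK-124. In the edgeR test the neutrophil gene *S100a8* was the higher one (log2 fold change 3.10, FDR = 0.000108), with 0.54 TPM under vehicle and 4.27 under SK-124. The B cell gene *Cd79a* was the lower one (-1.76, FDR = 0.000627). *Ptprc* (-0.295, FDR = 0.104) and *Adgre1* (-0.624, FDR = 0.0778) were not called, and their mean TPM was also lower with SK-124. The part of leukocytes in the levels of *Slc10a6* and of this list was not tested. In whole-kidney libraries a change in the number of cells of a type and a change in RNA per cell cannot be told apart.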

How the data were processed

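RNA was taken from the whole kidney of 12 mice and sequenced on the BGISEQ-500. The submitters' processing notes name FastQC, STAR 2.7.2b, RSEM 1.3.0, DESeq2 and the mm10 build. The authors deposited 1 RSEM table per mouse with expected counts, TPM, gene lengths and the posterior SD of the count. TPM values deposited by the authors are scaled to effective length and to a fixed total. The use of strand is not given in the sources used here. Of 55401 identifiers 55141 were matched to symbols, with or without their version, and 260 were not.

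Expected counts were rounded, TMM-normalized, filtered with filterByExpr (14159 genes kept) and compared, SK-124 against vehicle, with edgeR 4.0.16's quasi-likelihood test (R 4.3.3) and Benjamini-Hochberg adjustment, without a replicate block. Dividing the log2 fold change by the root of F gave its standard error. CPM means TMM-normalized counts scaled to library size. In a test on simulated data with 200 changed genes of 14159, edgeR recovered 99.5% with 3.4% false calls. The simulation gave all genes the same dispersion and shifted only those genes, by set folds, so its rates need not hold for the real data. Within one group, 30 pairs of mice gave at least 4.72 chi-square per degree of freedom, where counting noise gives about 1, so no pair was merged. Depth was about equal between mice and limits mainly *Slc10a6* in vehicle-treated mice. Counting intervals are exact Poisson intervals, or for a ratio exact conditional ones.

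Both genes and all lists (SLC10 family, sulphated steroid genes, the 5 nearest protein-coding genes on each side with any overlapping gene, CREB and CRTC targets, acute-phase and NF-kB genes, cell markers) were chosen with earlier results of these data known. Named besides were the 5 genes with the highest r over 12 mice, the 2 next above and below in fold change (FDR under 0.05), both averaging 1 CPM or more, and up to 4 genes of the smallest FDR per list. Genes outside this rule (*Slc22a6*, *Slc22a8*, *Slco1a1*, *Slco4a1*, *Sumf2*, *Fga*, *Hp*, *Lcn2*, genes at or near 0 counts, genes not called, and the markers *S100a8* and *Cd79a*) were picked with their values in view. The alternatives tried were RLE size factors, library totals, DESeq2 1.42.0, limma 3.58.1 on log2(TPM + 1) and log2(TPM + 0.1), no filter, unrounded counts, a minimum of 10 counts in every mouse, a replicate block, each mouse left out, and SK-124-treated mice 1 to 3 or 4 to 6 alone. The RefSeq length and the spread without 1 mouse were added after seeing the data. Results for 1 gene are not reported here.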

Additional observations from a re-analysis of the deposited data

Results flagged for a closer look

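In 45 named genes, the highest and lowest of 6 mice were compared with the rest of each group by Dixon's ratio, in 90 groups of 6 values; chance alone flags about 1 in 20 groups. It singled out 10 values, all in TMM-normalized CPM. *Slc10a6* in SK-124-treated mouse 4 was 4.8, where the next mouse had 3.04. Among the genes most like the pair, *Noct* in SK-124-treated mouse 1 was 35.9 against 61.2 in the next, and mouse 1 was also the lowest of its group for *Tmem252*. *Cebpd* in vehicle-treated mouse 5 was 6.93 against 3.78, and *Cdkn1a* in the same mouse was 7.64 against 9.48. Next in the order of fold change, *Hmox1* in SK-124-treated mouse 5 was 519.5 against 182.7, and *Atf3* in vehicle-treated mouse 4 was 0.101 against 0.427. In the SLC10 family, *Slc10a1* in vehicle-treated mouse 3 was 0.204 against 0.545, and *Slc10a5* in SK-124-treated mouse 2 was 38.9 against 30.6. *Sult1a1* in vehicle-treated mouse 2 was 7.04 against 8.97. Beside *Tmem252* on its chromosome, *Dock8* in vehicle-treated mouse 3 was 31.6 against 48.3.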

How the results depend on the processing

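Most values kept their direction and side of the threshold. The log2 fold change of *Tmem252* stayed between 3.23, with limma on log2(TPM + 1), and 3.53. That of *Slc10a6* was 1.10 with limma on log2(TPM + 1) and 2.94 on log2(TPM + 0.1), where the pseudocount exceeds its vehicle level, and between 3.95 and 4.26 otherwise; with at least 10 counts in every mouse it was not tested. The 3453 genes called became 2298 with SK-124-treated mice 1 to 3 alone, in a test of fewer mice. Genes called higher became 777 with library totals and 498 and 500 with limma, and genes called lower 3058 with library totals, 1233 with SK-124-treated mice 1 to 3 and 1267 with mice 4 to 6. Among sulphated steroid genes, 2 were higher with limma on log2(TPM + 1) and 5 lower with library totals, the cause of which was not tested. Among genes beside the pair, from 1 to 3 were lower with a mouse left out (3 without vehicle-treated mouse 3). The correlation of the pair turned to 0.715 without vehicle-treated mouse 6, to 0.385 without SK-124-treated mouse 4, and, in the SK-124 group, to 0.144 on log2(TPM + 0.1) and 0.0376 on library totals; with a mouse left out it ran from -0.773 to 0.715 with vehicle and from -0.774 to 0.385 with SK-124.

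Mice with the same number shared only that number (correlations of their deviations from -0.131 to 0.217). With it as a replicate block, 3466 genes were called, the 2 genes had 3.46 and 4.10, and no count of calls moved by more than 1.5 times. Depth limits *Slc10a6* in vehicle-treated mice, where it had 2 to 5 counts.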
